A study of Mus musculus with 6 samples.

Results

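DNA replication and S-phase genes were followed in sorted peritoneal macrophages of the mouse. The set held 54 genes, chosen by symbol for origin licensing, the replication fork, nucleotide supply, the G1/S cyclins, and the chromatin assembly and methylation that accompany replication. Each of the 54 symbols was found once among the 54532 genes of the deposited table. Total RNA had been sequenced from peritoneal lavage cells selected on magnetic beads for the macrophage surface antigen that Adgre1 encodes, and then sorted by fluorescence. The p16High group held 3 libraries of EGFP cells, and the p16Low group held 3 libraries of tdTomato cells. All came from C57BL/6 mice of the genotype p16-Cre/Rosa26-mtmg kept for 12 months, with no other treatment named. In this reporter Cre removes membrane tdTomato and turns on EGFP for good, so the sort records that the p16-Cre driver has been active at some time, in whichever cells carry it, and not the p16 transcript on the day of sorting. Whether the 3 libraries of a group are separate animals is not stated, so p-values measure only the spread between these libraries, which may be technical.

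A dividing cell licenses its origins by loading the MCM helicase in G1 and fires them in S phase, when kinases recruit CDC45 and GINS to it. E2F transcription factors, freed when the RB protein is phosphorylated, switch on many genes of this machinery, and p16INK4a, a product of Cdkn2a, inhibits kinases that phosphorylate RB. Resident peritoneal macrophages are known to maintain themselves in part by local division.

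The libraries held 16.52 to 20.87 M reads, read back from the steps of the deposited FPKM values, which scale a gene's reads by transcript length and library size. Cdkn2a stood at 5.48 to 7.84 FPKM in the p16High libraries, against 0.62 to 1.71 FPKM in the p16Low libraries. All 11 macrophage markers checked, such as Adgre1 and Csf1r, passed the filter on low values. One library stood apart: p16Low replicate 2 correlated with the other 5 at 0.956 to 0.967 on log2(FPKM + 1), while those correlated with each other at 0.984 to 0.991. Its share of mitochondrial reads was 1.08%, against 0.545% to 0.684%. Where leaving it out changed the call of a replication gene named in the text, both values are given.

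The comparison of p16High with p16Low covered 48 of the 54 genes, those with at least 1 FPKM in 3 or more libraries. Of these 48, 19 fell in p16High and none rose, at an adjusted p under 0.05 from limma over 10895 genes; 0.89% of all tested genes passed, 0.716% lower and 0.174% higher. At an unadjusted p under 0.05, 40 of the 48 were lower and none higher, against 4.07% of all tested genes lower. By limma-voom on recovered reads 14 fell and 0 rose. All 48 had a negative log2 difference, which is p16High minus p16Low on log2(FPKM + 1). Their median was -0.94, while over all tested genes it was 0.05 and 41.9% were negative. Mean FPKM was at least 2-fold lower in p16High for 28 of the 48, against 2.03% of all tested genes. Every p16High library lay below every p16Low library for 39 of the 48, against 7.45% of all tested genes. Mcm10, E2f8 and Chaf1a reached 1 FPKM in the 3 p16Low libraries alone, so they entered the test through the group in which they were high. In bulk samples, fewer cells in S phase and less of these transcripts per cell cannot be told apart.

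**Figure D1:**
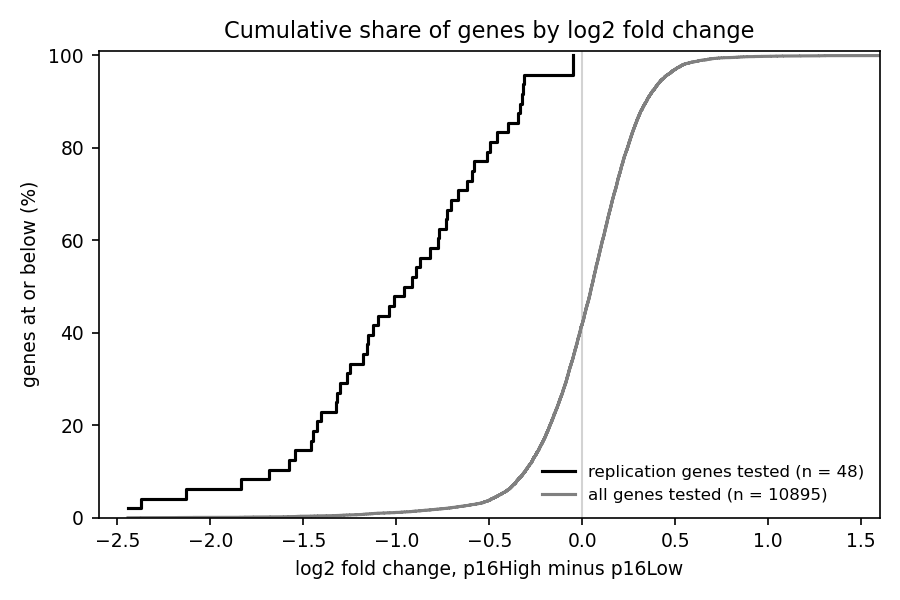
Cumulative share of genes (vertical axis, percent) by log2 difference, p16High minus p16Low (horizontal axis), for the 48 replication genes tested (black) and all 10895 genes tested (grey). The black curve lies wholly left of 0 with its median at -0.94, while the median of the grey curve is 0.05.

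How many genes passed depended on which libraries entered the fit. Without p16Low replicate 2, 33 of the 48 fell and none rose, the 19 among them, where 1.87% of all tested genes fell. With p16Low replicate 1 or p16Low replicate 3 left out, 4 fell. With p16High replicates 1, 2 and 3 left out in turn, 3, 3 and 4 fell. Pclaf, Rrm2 and Tk1 passed in each of these 6 fits. Lig1 passed in 3 of them and Hells in 2, and the other 14 of the 19 genes passed in 1, the fit without p16Low replicate 2. With no filter on low values all 54 genes had a negative log2 difference, but Rrm2 alone passed among 22566 genes tested. With a filter at 5 FPKM, 12 of the 36 genes left fell.

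**Figure D2:**
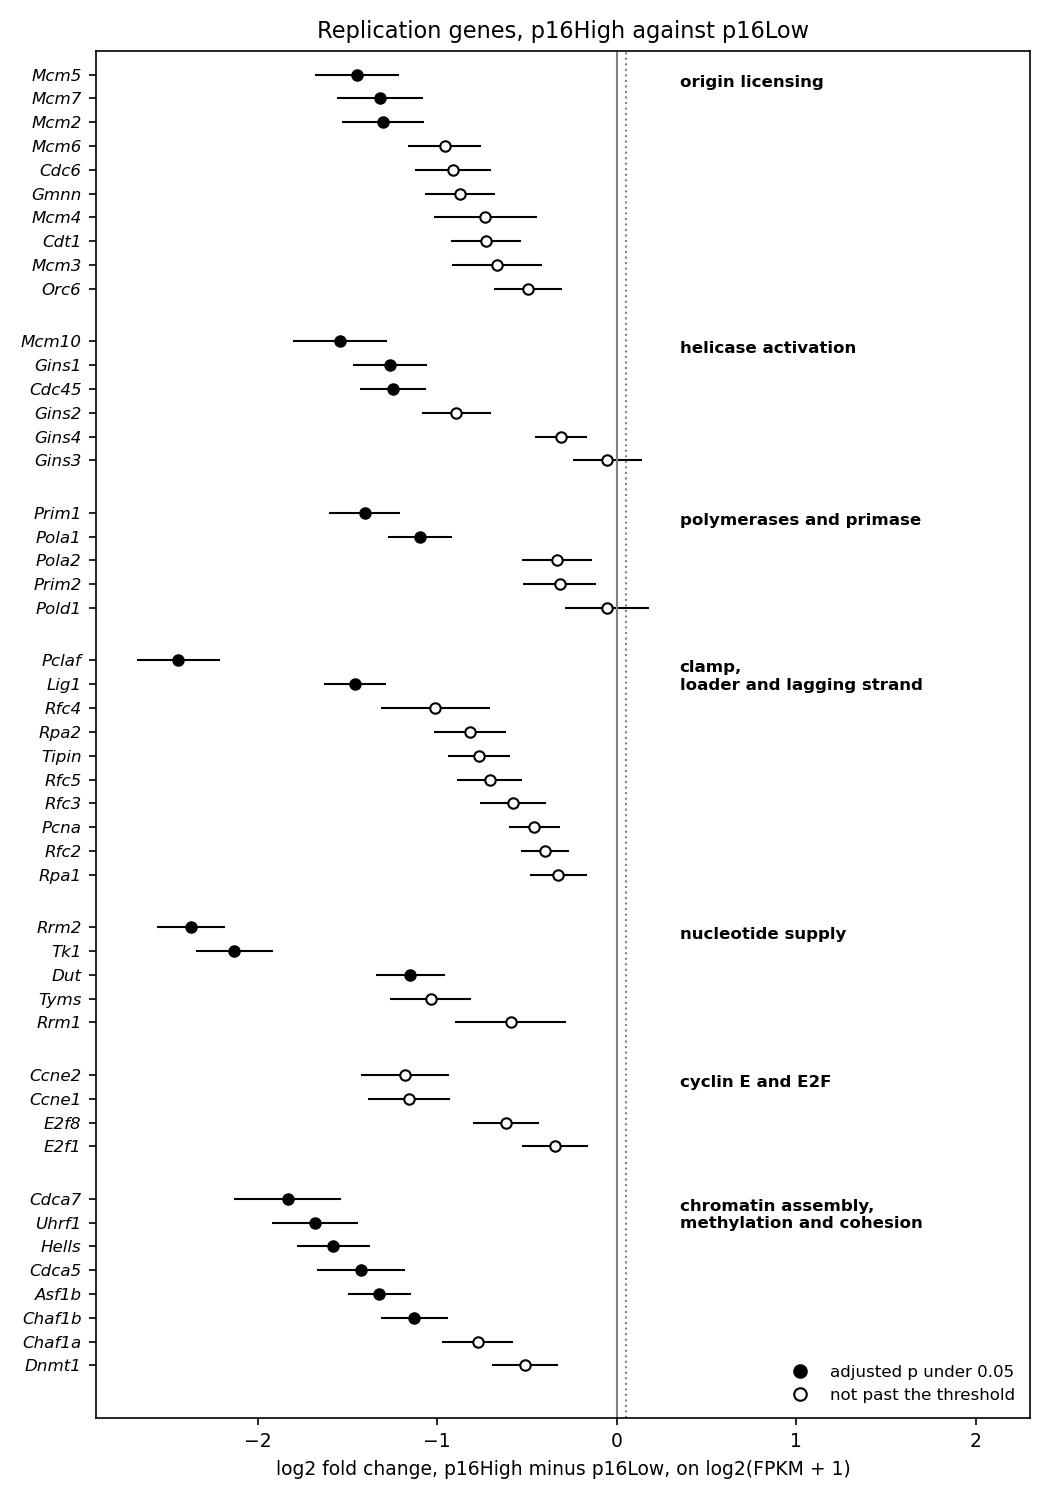
Log2 difference (p16High minus p16Low on log2(FPKM + 1), horizontal axis) with its SE for each of the 48 tested genes, grouped by role. Filled circles mark the 19 genes with an adjusted p under 0.05, open circles the other genes, the solid line 0 and the dotted line the median of all tested genes; values run from -2.44 for Pclaf to -0.052 for Gins3 and Pold1.

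Since E2F factors are known to bind the starts of many replication genes, promoters are shown for the 5 called genes with the lowest log2 differences, and for Mcm5, which was added after its match was seen. The windows are RefSeq sequence on GRCm38.p6, from 250 bases before to 50 bases after a gene's start, written 5' to 3' along the gene's strand. Capitals mark matches to the E2F letters TTTGGCGC, TTTCCCGC, TTTCGCGC or TTTGCCGC on either strand.
Pclaf, chr9:65890073-65890372, plus strand: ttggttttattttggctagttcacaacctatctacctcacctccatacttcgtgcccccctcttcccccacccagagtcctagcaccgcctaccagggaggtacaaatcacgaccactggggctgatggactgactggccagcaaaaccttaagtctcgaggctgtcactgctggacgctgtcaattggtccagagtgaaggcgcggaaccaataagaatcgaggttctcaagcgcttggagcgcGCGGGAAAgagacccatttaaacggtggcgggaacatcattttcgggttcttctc
Rrm2, chr12:24708004-24708303, plus strand: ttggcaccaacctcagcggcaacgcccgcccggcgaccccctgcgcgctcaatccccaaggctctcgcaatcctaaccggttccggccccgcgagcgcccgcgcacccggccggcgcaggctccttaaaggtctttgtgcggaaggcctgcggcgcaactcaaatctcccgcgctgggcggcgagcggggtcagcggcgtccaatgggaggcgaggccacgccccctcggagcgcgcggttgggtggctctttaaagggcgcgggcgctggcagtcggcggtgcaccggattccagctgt
Tk1, chr11:117825965-117826264, minus strand: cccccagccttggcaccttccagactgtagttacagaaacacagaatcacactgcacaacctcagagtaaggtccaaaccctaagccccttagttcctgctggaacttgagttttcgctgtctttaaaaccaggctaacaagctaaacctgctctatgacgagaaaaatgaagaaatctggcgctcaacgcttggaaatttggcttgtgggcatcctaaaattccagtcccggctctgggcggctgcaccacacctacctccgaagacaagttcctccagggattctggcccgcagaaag
Cdca7, chr2:72475969-72476268, plus strand: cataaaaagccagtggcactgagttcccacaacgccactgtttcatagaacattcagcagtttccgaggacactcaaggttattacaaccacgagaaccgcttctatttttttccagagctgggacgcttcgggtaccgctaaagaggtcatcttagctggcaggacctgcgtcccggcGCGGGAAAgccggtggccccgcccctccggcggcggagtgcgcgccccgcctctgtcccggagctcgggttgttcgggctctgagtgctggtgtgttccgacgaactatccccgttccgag
Uhrf1, chr17:56303087-56303386, plus strand: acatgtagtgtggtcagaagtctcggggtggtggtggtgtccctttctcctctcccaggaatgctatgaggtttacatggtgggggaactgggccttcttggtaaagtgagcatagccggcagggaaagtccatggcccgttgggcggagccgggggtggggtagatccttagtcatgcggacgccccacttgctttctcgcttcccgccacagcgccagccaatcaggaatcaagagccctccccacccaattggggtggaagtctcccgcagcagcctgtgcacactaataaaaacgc
Mcm5, chr8:75109259-75109558, plus strand: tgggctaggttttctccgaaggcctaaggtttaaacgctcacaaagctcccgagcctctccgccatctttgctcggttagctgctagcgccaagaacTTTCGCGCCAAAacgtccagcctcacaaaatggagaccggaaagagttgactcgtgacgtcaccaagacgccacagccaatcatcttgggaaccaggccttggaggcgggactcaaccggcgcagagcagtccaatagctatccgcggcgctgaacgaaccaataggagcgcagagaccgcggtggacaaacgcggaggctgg
The single match in Pclaf began 5 bases before the RefSeq start and that in Cdca7 71 bases before it, and the 2 overlapping matches in Mcm5 began 153 and 149 bases before it. These RefSeq starts lie 86 (Pclaf), 60 (Cdca7) and 60 (Mcm5) bases from the gene starts of the deposited coordinates. They fall inside the deposited gene for Pclaf and Cdca7 and before it for Mcm5. The windows shown for Rrm2, Tk1 and Uhrf1 held none of these letters; the other start listed for Uhrf1 did. Windows were found for 43 of the 54 genes, 7 of them with several starts, and 18 of the 43 (41.9%) held a match, against 2.6% of all 27025 genes with a window and 4.84% of the 8052 of them tested here. The CCAAT box, searched as CCAAT on both strands, was in 58.1% of the 43, against 41.1% of all genes with a window and 43.6% of those tested. The CHR element, searched as TTTGAA or TTCGAA on both strands, was in 27.9%, against 21.7% and 16.9%. Within the set, the 16 tested genes with an E2F match had a median log2 difference of -1.03 and the 23 without had one of -1.04.

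Of the 5 genes of nucleotide supply 3 fell, and the group's median log2 difference was -1.15. Rrm2 encodes the small subunit of ribonucleotide reductase that cells make for S phase. Rrm2 (chromosome 12, 24708241 to 24714146) had 4.74, 4.14 and 3.41 FPKM across p16High, against 30.6, 21.8 and 23.99 FPKM across p16Low. Each p16High library lay far below each p16Low library, 4.096 ± 0.666 FPKM across p16High, against 25.5 ± 4.54 FPKM across p16Low (SD, n = 3 each), 6.22-fold lower (log2 difference -2.37, SE 0.19, limma adjusted p = 0.00169). Rrm1, the large subunit that joins it, had 12.8, 13.3 and 13.8 FPKM across p16High, against 26.8, 11.2 and 28.7 FPKM across p16Low. The p16High libraries lay close together, and p16Low replicate 2 was below all of them (log2 difference -0.59, SE 0.31, limma adjusted p = 0.738); without that library the log2 difference was -1.005 and the limma adjusted p 0.00023. Tk1 (chromosome 11, 117815526 to 117826092), the cytosolic thymidine kinase of the salvage pathway, had 3.37, 2.51 and 2.65 FPKM across p16High, against 14.1, 21.2 and 13.1 FPKM across p16Low (5.66-fold lower, log2 difference -2.13, SE 0.21, limma adjusted p = 0.00376). Dut, the dUTPase that keeps uracil out of DNA, had 8.67, 9.25 and 8.75 FPKM across p16High, against 17.5, 27.7 and 18.9 FPKM across p16Low (2.403-fold lower, limma adjusted p = 0.036). Neither overlapped between groups, and p16Low replicate 2 was the highest library for both. Tyms, thymidylate synthase, had 15.4, 9.73 and 10.2 FPKM across p16High, against 23.3, 32.04 and 20.3 FPKM across p16Low, without overlap, and missed the threshold (log2 difference -1.04, SE 0.23, limma adjusted p = 0.0997); without p16Low replicate 2 it fell (log2 difference -0.86, limma adjusted p = 0.01404).

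**Figure D3:**
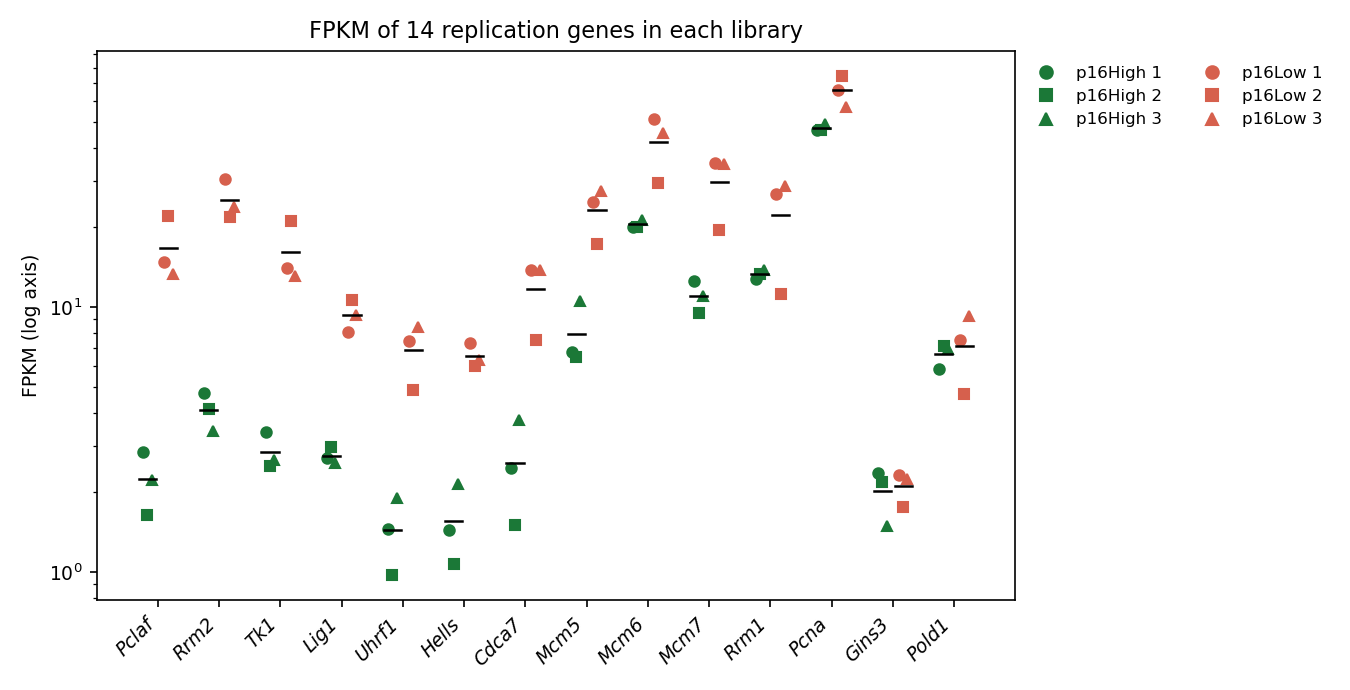
FPKM on a log axis (vertical) in each library for 14 replication genes (horizontal), p16High in green left of p16Low in red, with circles, squares and triangles for replicates 1, 2 and 3 and a bar at each group's mean. Pclaf, Rrm2 and Tk1 show wide gaps between groups; in Rrm1 the p16Low square (replicate 2, 11.2 FPKM) lies below the p16High libraries, and in Gins3 and Pold1 the groups overlap.

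Of the 12 genes of the sliding clamp, its loader and the lagging strand, 10 were tested and 2 fell. Pclaf (chromosome 9, 65890237 to 65903266), a factor that binds the clamp PCNA, had 2.84, 1.65 and 2.22 FPKM across p16High, against 14.8, 22.1 and 13.3 FPKM across p16Low. The groups were well apart (7.49-fold lower, log2 difference -2.44, SE 0.23, limma adjusted p = 0.00349), and this was the lowest log2 difference of the 48. Pcna, the clamp itself, had 46.7, 46.6 and 48.97 FPKM across p16High, against 65.8, 74.8 and 57.2 FPKM across p16Low. All p16High libraries were below all p16Low ones, yet the gene missed the threshold (1.39-fold lower, log2 difference -0.46, SE 0.14, limma adjusted p = 0.353). Lig1, the ligase that joins Okazaki fragments, had 2.69, 2.96 and 2.59 FPKM across p16High, against 8.07, 10.6 and 9.35 FPKM across p16Low (3.402-fold lower, limma adjusted p = 0.00867). The clamp loader subunits Rfc2, Rfc3, Rfc4 and Rfc5 were 1.33-, 1.57-, 2.12- and 1.705-fold lower by mean FPKM and none passed with all libraries. Without p16Low replicate 2, Rfc3 and Rfc5 fell, with limma adjusted p of 0.0405 and 0.00363. Rfc4 overlapped between groups, with 7.16, 5.62 and 11.9 FPKM across p16High, against 20.9, 20.2 and 11.3 FPKM across p16Low. Rpa1 and Rpa2, of the complex that coats single-stranded DNA, were 1.26- and 1.78-fold lower, and Tipin, of the fork protection complex, 1.75-fold lower; none of these passed with all libraries. Without p16Low replicate 2, Rpa2 and Tipin fell, with limma adjusted p of 0.0186 and 0.0133. Rpa1 had the smallest log2 difference of the role, with 14.2, 11.9 and 16.3 FPKM across p16High, against 17.95, 18.2 and 17.3 FPKM across p16Low.

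Fen1 and Dscc1 of the same role did not pass the filter. Fen1, the flap endonuclease of Okazaki fragments, held 13, 22 and 8 reads across p16High, against 13, 26 and 23 reads across p16Low, and its groups overlapped. In the GENCODE M21 annotation 84.2% of its exonic bases also lie in genes on the opposite strand, among them Tmem258, and whether counting used strand was not stated, so reads of these genes cannot be told apart and its level is uncertain. At least 10% of exonic bases were shared with other genes for 10 of the 54 genes. Besides Fen1 these were Gins2, Chaf1a, Mcm7, Ccne2 (17.4%), Rfc2 (15.1%), Rfc4 (12.7%), E2f8 (11.2%), Orc1 (10.8%) and Rfc5 (10.7%). Reads of their shared bases cannot be told apart either. Dscc1, of the alternative clamp loader that serves cohesion, held 12, 10 and 11 reads across p16High, against 58, 76 and 30 reads across p16Low. Its groups did not overlap (limma adjusted p = 0.363 with no filter).

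In origin licensing 10 of 11 genes were tested and 3 fell, all of them subunits of the MCM2-7 helicase ring. Mcm5 (chromosome 8, 75109569 to 75128439) had 6.79, 6.47 and 10.5 FPKM across p16High, against 25, 17.4 and 27.6 FPKM across p16Low (2.94-fold lower, log2 difference -1.45, SE 0.23, limma adjusted p = 0.0332). Mcm7, 12.6% of whose exonic bases also lie in other genes, had 12.5, 9.48 and 11.01 FPKM across p16High, against 35.1, 19.5 and 34.8 FPKM across p16Low (2.71-fold lower, limma adjusted p = 0.04503). Mcm2 had 9.23, 6.13 and 6.63 FPKM across p16High, against 22.7, 14.2 and 22.3 FPKM across p16Low (2.69-fold lower, limma adjusted p = 0.0392). The groups did not overlap in these 3 subunits, and p16Low replicate 2 was the lowest p16Low library in each. Mcm6, Mcm4 and Mcm3 were 2.04-, 1.79- and 1.69-fold lower, with limma adjusted p of 0.0929, 0.614 and 0.564. Mcm3 had 13.5, 16.1 and 14.05 FPKM across p16High, against 30.8, 15.3 and 27.97 FPKM across p16Low, so its overlap came from p16Low replicate 2. Without that library all 6 subunits fell, with log2 differences of -1.64 (Mcm5), -1.59 (Mcm7), -1.51 (Mcm2), -1.19 (Mcm6), -1.03 (Mcm4) and -0.97 (Mcm3). Their limma adjusted p then ran from 1.3e-05 for Mcm7 to 0.00792 for Mcm4. The summed FPKM of the ring was 70.9, 65.7 and 75.6 across p16High, against 188, 106 and 175 across p16Low.

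Of the licensing genes outside the ring, none passed with all libraries, and Cdc6 and Gmnn fell without p16Low replicate 2, with limma adjusted p of 0.0314 and 0.00928. Cdc6, the ATPase that loads the MCM ring together with ORC, had 1.47, 0.7098 and 1.51 FPKM across p16High, against 3.18, 2.65 and 3.64 FPKM across p16Low (2.57-fold lower, limma adjusted p = 0.131). Cdt1, its partner in loading, was 1.79-fold lower, and Gmnn, the Cdt1 inhibitor geminin, 1.92-fold lower, with limma adjusted p of 0.225 and 0.113. The groups did not overlap in any of these 3 genes. Orc6, of the origin recognition complex, had the smallest log2 difference of the role, with 16.05, 12.5 and 17.8 FPKM across p16High, against 24.7, 23.6 and 18.1 FPKM across p16Low (1.44-fold lower, limma adjusted p = 0.569). Orc1, another ORC subunit, was too low to test, with 11, 9 and 4 reads across p16High, against 36, 7 and 37 reads across p16Low.

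Of the genes that turn the loaded ring into an active helicase, 6 of 7 were tested and 3 fell. Mcm10, a factor of origin firing, had 0.694, 0.112 and 0.365 FPKM across p16High, against 3.38, 1.84 and 4.11 FPKM across p16Low (7.96-fold lower, log2 difference -1.54, SE 0.26, limma adjusted p = 0.0362). Its p16High values rested on as few as 4 reads in a library. Cdc45, which joins the ring in the active helicase, had 1.84, 1.19 and 1.796 FPKM across p16High, against 5.31, 4.66 and 5.504 FPKM across p16Low (3.21-fold lower, limma adjusted p = 0.0229). The 4 subunits of GINS, the other partner of the ring, differed in their values. Gins1 had 2.92, 3.13 and 3.801 FPKM across p16High, against 8.74, 12.1 and 7.42 FPKM across p16Low (2.87-fold lower, limma adjusted p = 0.0335). Gins2 was 2.301-fold lower (limma adjusted p = 0.09496), with 67.3% of its exonic bases shared with Gse1 on the other strand. Gins4 had 27.2, 26.4 and 28.1 FPKM across p16High, against 37.8, 35.2 and 29.6 FPKM across p16Low (1.26-fold lower, limma adjusted p = 0.7204). Gins3 had 2.36, 2.19 and 1.49 FPKM across p16High, against 2.32, 1.75 and 2.25 FPKM across p16Low, with overlapping groups (log2 difference -0.052, SE 0.19, limma adjusted p = 0.943). Its log2 difference was 0.08 without p16High replicate 3. Cdc7, the kinase that works with DBF4, was not tested, with 2, 3 and 28 reads across p16High, against 18, 27 and 41 reads across p16Low.

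Among the polymerases and primase, 5 of 6 genes were tested and 2 fell, both of the complex that lays down primers. Prim1, the catalytic primase subunit, had 1.52, 1.31 and 2.21 FPKM across p16High, against 6.71, 5.11 and 6.31 FPKM across p16Low (3.61-fold lower, log2 difference -1.40, SE 0.20, limma adjusted p = 0.0189). Pola1, the catalytic subunit of polymerase alpha, had 1.15, 1.49 and 1.63 FPKM across p16High, against 3.63, 4.32 and 4.63 FPKM across p16Low (2.94-fold lower, limma adjusted p = 0.0334). Their accessory partners did not pass. Prim2 had 5.54, 4.94 and 4.77 FPKM across p16High, against 4.81, 7.37 and 7.93 FPKM across p16Low with overlap, and Pola2 was 1.31-fold lower, with limma adjusted p of 0.7502 and 0.747. Pold1, the catalytic subunit of polymerase delta, had 5.86, 7.13 and 6.98 FPKM across p16High, against 7.49, 4.68 and 9.28 FPKM across p16Low, with overlap (log2 difference -0.052, SE 0.23, limma adjusted p = 0.953). Its log2 difference was 0.025 without p16High replicate 1 and 0.14 without p16Low replicate 3. Pole, of polymerase epsilon, was below the filter with 11, 11 and 6 reads across p16High, against 56, 28 and 33 reads across p16Low, without overlap (limma adjusted p = 0.467 with no filter).

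Partner genes of one complex or step could differ by unlike amounts, and their ratio within a library does not depend on library scaling. The 5 pairs were chosen after the values were seen. Rrm2 over Rrm1 was 0.37, 0.311 and 0.247 across p16High, against 1.14, 1.96 and 0.837 across p16Low. Pclaf over Pcna was 0.0609, 0.0353 and 0.0453 across p16High, against 0.225, 0.296 and 0.233 across p16Low. Each p16High ratio lay below each p16Low ratio for both. The same held for Prim1 over Prim2, at 0.265 to 0.462 across p16High, against 0.694 to 1.4 across p16Low. It also held for Pola1 over Pola2, at 0.163 to 0.27 across p16High, against 0.392 to 0.652 across p16Low, and for Gins1 over Gins4, at 0.107 to 0.135 across p16High, against 0.231 to 0.344 across p16Low. For each pair a two-sided exact permutation test gave p = 0.1, and 0.1 after adjustment over the 5. That is the smallest p that 3 libraries against 3 allow. Because the pairs were chosen with the values seen, the test adds nothing to the separation of the ratios.

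**Figure D4:**
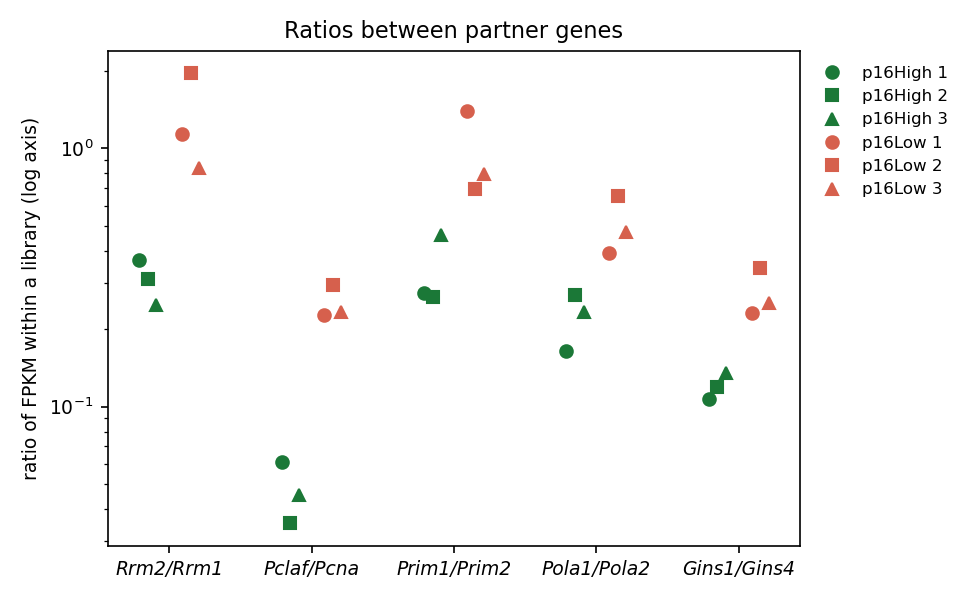
Ratio of FPKM between 2 partner genes within a library (log axis, vertical) for 5 pairs (horizontal), p16High in green left of p16Low in red, with circles, squares and triangles for replicates 1, 2 and 3. In each pair the 3 p16High libraries lie below the 3 p16Low libraries, for example 0.247 to 0.37 against 0.837 to 1.96 for Rrm2 over Rrm1.

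Among the regulators of the G1/S step none of the 4 tested passed in limma, with 3 at an unadjusted p under 0.05, and 0 passed in limma-voom. Cyclin E activates CDK2 for entry into S phase. Ccne1 had 1.03, 0.352 and 0.557 FPKM across p16High, against 2.37, 3.52 and 2.11 FPKM across p16Low (4.12-fold lower, limma adjusted p = 0.0702). Ccne2 had 1.17, 0.8305 and 0.748 FPKM across p16High, against 4.02, 2.02 and 4.32 FPKM across p16Low (3.77-fold lower, limma adjusted p = 0.0818). Neither overlapped, and both fell without p16Low replicate 2, with limma adjusted p of 0.0416 and 0.00141. E2f1, an activating E2F factor, had 5.68, 4.84 and 5.05 FPKM across p16High, against 7.35, 5.52 and 7.85 FPKM across p16Low (1.33-fold lower, limma adjusted p = 0.747), and its overlap came from p16Low replicate 2. E2f8, a repressor of the same family, had 0.218, 0.632 and 0.374 FPKM across p16High, against 1.16, 1.09 and 1.19 FPKM across p16Low, without overlap (limma adjusted p = 0.324). E2f2 was not tested, with 16, 10 and 0 reads across p16High, against 21, 45 and 59 reads across p16Low; the 0 was out of 16.52 M reads and allows up to 3 reads, for counting error alone.

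Chromatin assembly, DNA methylation and cohesion had the lowest median log2 difference of the 7 roles, -1.37, and 6 of its 8 genes fell. UHRF1 recognises hemimethylated DNA behind the fork and recruits the methyltransferase DNMT1, while HELLS and CDCA7 form a nucleosome remodeller needed for DNA methylation. Uhrf1 (chromosome 17, 56303321 to 56323486) had 1.45, 0.975 and 1.91 FPKM across p16High, against 7.43, 4.85 and 8.43 FPKM across p16Low (4.78-fold lower, log2 difference -1.68, SE 0.24, limma adjusted p = 0.0189). Hells had 1.44, 1.07 and 2.16 FPKM across p16High, against 7.34, 5.97 and 6.31 FPKM across p16Low (4.2-fold lower, limma adjusted p = 0.01304). Cdca7 had 2.48, 1.51 and 3.76 FPKM across p16High, against 13.8, 7.52 and 13.9 FPKM across p16Low (4.54-fold lower, limma adjusted p = 0.0332). In these 3 genes p16High replicate 2 was the lowest library and p16High replicate 3 the highest of its group, and no p16High library reached a p16Low one. Dnmt1 itself had 3.56, 5.09 and 4.33 FPKM across p16High, against 7.28, 5.85 and 6.55 FPKM across p16Low, without overlap, and missed the threshold (1.52-fold lower, limma adjusted p = 0.523).

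The histone chaperones and a cohesion factor made up the rest of this role. Asf1b, which passes new histones to the assembly factor, had 8.81, 7.39 and 8.51 FPKM across p16High, against 25.5, 18.3 and 22.98 FPKM across p16Low (2.701-fold lower, limma adjusted p = 0.0131). Chaf1b, a subunit of chromatin assembly factor 1, had 2.205, 2.38 and 3.39 FPKM across p16High, against 7.26, 6.95 and 6.53 FPKM across p16Low (2.602-fold lower, limma adjusted p = 0.0334). Its partner Chaf1a was 3.11-fold lower (limma adjusted p = 0.182, and 0.0469 without p16Low replicate 2, where it fell), with 52.5% of its exonic bases shared with Ubxn6 on the other strand. Cdca5 encodes sororin, which stabilises cohesion of sister chromatids, and had 1.08, 0.662 and 0.458 FPKM across p16High, against 2.72, 5.31 and 3.16 FPKM across p16Low (5.08-fold lower, limma adjusted p = 0.0382). The groups did not overlap in any of these 4 genes.

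Within p16Low, replicate 2 did not differ from its partners in one direction. It was the lowest of the 3 for 26 of the 48 genes (54.2%) and the highest for 14 (29.2%); over all tested genes it was the lowest for 56.1% and the highest for 31.1%. Relative to the mean FPKM of replicates 1 and 3 it stood lowest for Rrm1 (ratio 0.403), Ccne2 (0.486) and Mcm10 (0.491). All 6 MCM2-7 subunits were lowest in it, at ratios of 0.509 to 0.661. It stood highest for Cdca5 (1.803), Ccne1 (1.57) and Pclaf (1.57). The 14 genes highest in it had a median annotated transcript length of 1232 bases, and the 26 lowest in it one of 1579 bases. The Spearman correlation of length with the log2 difference of replicate 2 from its partners was -0.28 across the 48 genes and -0.43 across 10892 tested genes with a length. For p16Low replicate 3 against its partners it was 0.51 and 0.37, and for p16Low replicate 1 -0.13 and 0.32. Each library is part of the reference for its partners, so these correlations depend on one another and cannot rank the libraries. The points share 3 libraries, and genes are not independent replicates. The part of transcript length in the calls was not tested. Within p16High, replicate 2 was the lowest for 27 of the 48 genes (56.2%), against 31.5% of all tested genes.

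**Figure D5:**
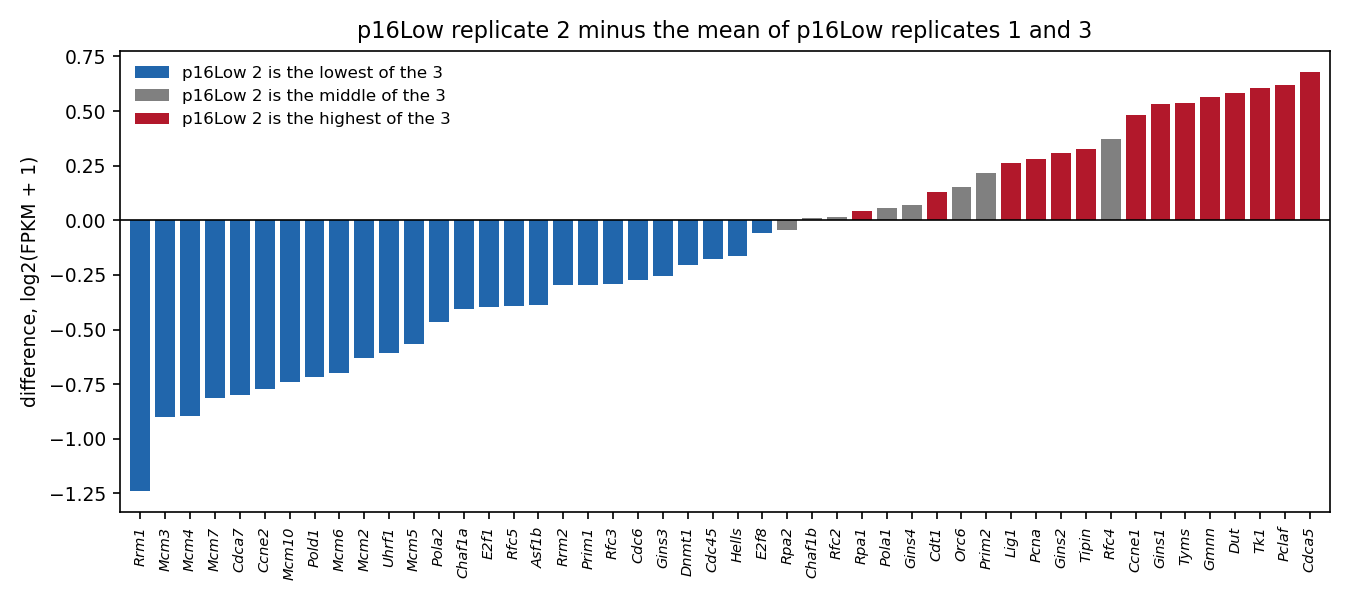
Difference of p16Low replicate 2 from the mean of p16Low replicates 1 and 3 on log2(FPKM + 1) (vertical axis) for the 48 tested replication genes (horizontal axis, sorted). Blue, grey and red bars mark genes for which it was the lowest (26), middle or highest (14) of the 3 libraries; the bars run from -1.24 for Rrm1 to 0.68 for Cdca5.

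A further 76 replication genes outside the set were listed in 4 groups, and 67 were tested. Of these, 5 fell (7.46%) and none rose, against 0.716% lower among all tested genes. A negative log2 difference was seen in 42 (62.7%), against 41.9% of all tested genes, and the median was -0.15. Without p16Low replicate 2, 9 of them fell, where 1.87% of all tested genes fell. With any other library left out 1 fell. Of 30 tested other fork and initiation genes, 3 fell. Timeless, the partner of Tipin at the fork, had 0.337, 0.401 and 0.416 FPKM across p16High, against 1.62, 3.27 and 2.24 FPKM across p16Low (6.18-fold lower, limma adjusted p = 0.0361). Clspn, the checkpoint mediator claspin, had 0.286, 0.0308 and 0 FPKM across p16High, against 1.79, 3.52 and 1.44 FPKM across p16Low (log2 difference -1.51, SE 0.26, limma adjusted p = 0.0361). Dtl, of the ligase that degrades Cdt1, had 0.7497, 0.917 and 0.519 FPKM across p16High, against 2.66, 2.23 and 2.301 FPKM across p16Low (3.29-fold lower, limma adjusted p = 0.0475). The p16High libraries were under 1 FPKM for all 3, which passed the filter through p16Low alone. The most abundant of the group did not pass. Rnaseh2c, of ribonuclease H2, averaged 58.3 ± 3.55 FPKM across p16High, against 72.3 ± 29.2 FPKM across p16Low, and Pole4, a small subunit of polymerase epsilon, averaged 56.1 ± 3.88 FPKM across p16High, against 65.8 ± 13.4 FPKM across p16Low (SD, n = 3 each).

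Among 12 other nucleotide genes, 5 (41.7%) had a negative log2 difference, against 41.9% of all tested genes. The p16High libraries all lay below the p16Low ones for 4 of the 12 and above them for 2. Over the 10895 genes tested this held for 812 and 915. Samhd1, a dNTP hydrolase that lowers nucleotide pools in macrophages, had 99.9, 105 and 99.2 FPKM across p16High, against 94.3, 78.9 and 93.8 FPKM across p16Low. Every p16High library was above every p16Low library, but the gene did not pass (log2 difference 0.19, SE 0.13, limma adjusted p = 0.751). Cmpk1, a pyrimidine nucleotide kinase, averaged 187 ± 3.05 FPKM across p16High, against 173 ± 23.6 FPKM across p16Low and did not pass. Of 17 tested other G1/S regulators, 1 fell, Ccna2, cyclin A2, with 2.58, 2.11 and 1.75 FPKM across p16High, against 12.9, 9.85 and 17.7 FPKM across p16Low (6.29-fold lower, log2 difference -2.18, SE 0.23, limma adjusted p = 0.00454). Tfdp1, the E2F dimer partner, averaged 24.6 ± 1.45 FPKM across p16High, against 28.6 ± 5.21 FPKM across p16Low, and E2f4, a repressive E2F, 26.7 ± 4.66 FPKM across p16High, against 24.7 ± 4.36 FPKM across p16Low; neither passed. None of 8 tested other chromatin assembly genes passed in limma, with 2 at an unadjusted p under 0.05, and 0 passed in limma-voom. Ssrp1, of the FACT histone chaperone, averaged 89.6 ± 7.89 FPKM across p16High, against 90.1 ± 24.8 FPKM across p16Low, and Slbp, which binds histone mRNAs, 31.1 ± 3.66 FPKM across p16High, against 41.3 ± 8.79 FPKM across p16Low (SD, n = 3 each).

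Markers of B cells and of small peritoneal and monocyte-derived macrophages had lower sums in p16High, as the replication genes did. Those of dendritic and mast cells had higher sums. Lower sums also held for the macrophage list, at 81634 to 82828 FPKM across p16High, against 85889 to 89843 FPKM across p16Low. Most of that was Lyz2, the 1 of those 11 genes with a negative log2 difference (-0.133). The red cell and platelet list, nearly all Pf4, summed to 4635 to 5825 FPKM across p16High, against 6679 to 10522.5 FPKM across p16Low. Pf4 did not pass (limma adjusted p = 0.469). The other 5 genes, Hbb-bs, Hba-a1, Alas2, Ppbp and Gp9, averaged under 1 FPKM, so that sum says little about them. The 10 B-cell markers summed to 138 to 207 FPKM across p16High, against 228 to 244 FPKM across p16Low. Of the 9 tested none passed in limma, with 6 at an unadjusted p under 0.05, and 0 passed in limma-voom; none of the 10 was at 0 in all libraries. Cd79a, part of the B-cell receptor, had 5.98, 5.82 and 8.602 FPKM across p16High, against 12.9, 14.2 and 12.2 FPKM across p16Low. Of the 9 tested, 7 had a negative log2 difference, and Bank1 (0.047) and Cd22 (0.069) went the other way. Igkc, the largest part of the sum, had 72.6, 62.1 and 111.07 FPKM across p16High, against 113.9, 141.7 and 110.8 FPKM across p16Low. Its groups overlapped. The 10 small-macrophage markers summed to 1367 to 1451 FPKM across p16High, against 1612 to 1730 FPKM across p16Low. Most of that sum was Fn1, fibronectin, which averaged 1301 ± 52.7 FPKM across p16High, against 1421 ± 104 FPKM across p16Low (SD, n = 3 each, log2 difference -0.12). The sum therefore says little about the other genes of the list. Ccr2, Ly6c2 and Cd226 were below the filter. Ccr2 had 0.131, 0.141 and 0.15 FPKM across p16High, against 1.02, 0.608 and 0.999 FPKM across p16Low, without overlap. Ly6c2 and Cd226 reached at most 0.104 and 0.0995 FPKM in any library. Irf4 went the other way, with a log2 difference of 0.068. Plac8, Chil3 and Napsa were 2.41-fold lower, 2.29-fold lower and 2.14-fold lower, with limma adjusted p of 0.0688, 0.0542 and 0.0799, and the list's median log2 difference over the 7 tested was -0.85. Of the 7 tested none passed in limma, with 5 at an unadjusted p under 0.05, and 0 passed in limma-voom. Without p16Low replicate 2, 3 B-cell and 4 small-macrophage markers fell, where 1.87% of all tested genes fell. With all libraries, 4.07% of all tested genes were lower at an unadjusted p under 0.05. All 10 T and NK cell markers and all 8 mesothelial and stromal markers averaged under 1 FPKM, with 5 and 6 of them at 0 in all 6 libraries. The 7 dendritic cell markers summed to 14.7 to 24.97 FPKM across p16High, against 8.302 to 10.3 FPKM across p16Low; the 1 tested, Cd209a, had a log2 difference of 1.01 (limma adjusted p = 0.0729), and it rose without p16Low replicate 2 (limma adjusted p = 0.00694). The 7 mast cell markers summed to 97.8 to 102 FPKM across p16High, against 54.5 to 88.3 FPKM across p16Low, nearly all of it Hdc, which did not pass (limma adjusted p = 0.718). Cma1, Mcpt4, Tpsb2 and Fcer1a reached at most 0.839 FPKM across p16High and were listed at 0 in all p16Low libraries. Cpa3 had 0.4, 0.775 and 1.44 FPKM across p16High, against 0.235, 0.0519 and 0 FPKM across p16Low. Kit was at 0 in all 6 libraries. The part of other cells in the difference of the replication genes was not tested.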

How the data were processed

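Total RNA of sorted peritoneal cells was sequenced in 3 p16High and 3 p16Low libraries. The authors deposited 1 table of FPKM values. Per the submitters' processing notes it involved TopHat2 2.0.12, Bowtie2 2.2.3 and HTSeq 0.6.1; settings, strand use and genome build were not stated. Gene IDs matched GENCODE M21 (GRCm38) for 54494 of 54532 genes, 98.3% with the same start and end; of the 54 replication genes only Pola2 differed. Coordinates are those of the table.

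Multiplying FPKM by the mean annotated transcript length, rounded down, and dividing by each library's step recovered whole reads (within 0.001) for 96.2% of 22566 genes above 0. A search over whole-number lengths served the other 863, Pola2 among them, whose reads are uncertain by a factor. At these depths 3 reads are 0.144 to 0.182 CPM.

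The 10895 genes that reached 1 FPKM in at least 3 libraries were fitted as log2(FPKM + 1) with limma 3.58.1 in R 4.3.3: group as the only term, prior variance with a trend, Benjamini-Hochberg over all genes fitted, threshold 0.05. The procedure was tested on simulated data. The pseudocount understates changes of low genes; folds are ratios of mean FPKM. The text names every called gene, the 2 largest and the smallest log2 difference of each role, genes below the filter, and called or most abundant genes of 4 further lists, besides partners of these. The result of 1 gene of the further lists is not reported here. The genes, lists and tests were chosen with earlier results of these data known. Promoters are RefSeq sequence on GRCm38.p6. Alternatives were another pseudocount, other filters, 2 other scalings, limma-voom, no trend, a replicate block and each library left out.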

Additional observations from a re-analysis of the deposited data

How the results depend on the processing

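The log2 differences of the 48 replication genes stayed negative under the alternatives run except for Gins3 and Pold1. Of 660 values under alternatives, 529 kept direction and side of the threshold, 110 lost a call, 18 gained one and 3 changed sign. The 19 calls became 18 with a pseudocount of 0.1, 21 with median-of-ratios scaling, 19 with quantile normalization (17 shared, with Cdca5 and Gins1 lost and Ccne2 and Mcm6 gained), 14 with limma-voom, 18 without the trend, 12 with a filter at 5 FPKM (36 genes tested) and 1 with no filter; they ran from 3 to 33 with libraries left out. The replicate block gave 15, and 67 over all genes in place of 97. Same-numbered libraries share only a number, nothing in the labels pairs them, and their deviations correlated at -0.189, -0.173 and 0.014. Over all genes the 97 calls became 9 with no filter and 58 with a filter at 5 FPKM, and ran from 17 to 301 with libraries left out. The 5 calls of the further lists became 0 with no filter, 1 with a filter at 5 FPKM, 2 with quantile normalization and 3 with the replicate block, and ran from 1 to 9 with libraries left out. With no filter 22566 genes were tested in place of 10895; the cause of the other changes was not tested. With libraries left out, log2 differences of genes that did not pass ran from -0.137 to 0.08 (Gins3), -0.291 to 0.137 (Pold1), -0.449 to 0.07 (Rnaseh2c), -0.024 to 0.239 (E2f4) and -0.201 to 0.207 (Ssrp1); Ssrp1 was -0.013 with median-of-ratios scaling. Depth limits genes at a few reads, such as Mcm10 and Orc1.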
